A study of Mus musculus with 6 samples.

Results

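Some of the genes described here bring newly made proteins into the endoplasmic reticulum (ER) or fold them there. Others build, load, coat or tether the vesicles that leave the ER or return to it, or sense a load of unfolded protein. All were taken by name from the protein-coding genes of the table. The names are the Sec genes of the translocon and the COPII coat, the Cop subunits of the COPI coat, the Kdelr receptors, the Tmed, Ssr, Spcs, Pdia, Sar1 and Trappc families, and *Xbp1*, *Atf6*, *Ern1*, *Ddit3*, *Calr*, *Canx*, *Creb3* and *Creb3l2*. The rule found 79 genes of the 31613 in the table and used no measured value.

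Mouse dental papilla cells (mDPCs), the mesenchyme of the tooth germ from which dentin-forming odontoblasts arise, were collected on postnatal day 6 for bulk RNA-seq. There were 3 control libraries and 3 libraries of *Dmp1*-Cre;*Setd2* fl/fl mice (cKO below), and each library pooled RNA from 3 biological replicates. The study's list of animals gives fewer mice per genotype for this collection than such pools would need, and whether pools share animals is not stated. Control mice are labelled wild type and are given in the study's methods as *Setd2* fl/fl mice without Cre, and in cKO mice both floxed *Setd2* alleles are combined with Cre driven by the *Dmp1* promoter, which is active in the odontoblast layer. Other papilla cells of a cKO pool therefore keep *Setd2*, the gene of the enzyme that trimethylates histone H3 at lysine 36. The count of *Setd2* covers the whole gene and every cell, so it does not check the genotype. It was 98.0, 96.5 and 92.0 CPM (counts relative to the TMM-scaled library size) in control and 102, 98.5 and 96.0 CPM in cKO.

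A secreted protein enters the ER through the SEC61 translocon, loses its signal peptide, and folds with the help of lectin chaperones and disulfide isomerases. COPII coats then bud vesicles towards the Golgi, and COPI coats and KDEL receptors return escaped ER residents and cargo receptors. Odontoblasts secrete large amounts of type I collagen and dentin proteins, and the ATF6, IRE1 and CREB3 pathways are known to raise the transcription of secretory genes when the load on the ER grows.

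The libraries held 18557647 to 19210750 counts. Of the 79 genes, 78 passed the filter on low counts. *Tmed6*, a p24 cargo receptor gene, did not, with 1, 1 and 1 reads in control and 0, 1 and 0 reads in cKO, both groups being at or under the floor of 3 counts. The other genes were well measured, since 77 had a mean of at least 10 CPM over the 6 libraries. Per kilobase of canonical transcript, the 79 levels had a median of 30.9 CPM per kb and reached 364 CPM per kb for *Calr*, which encodes the lectin chaperone calreticulin.

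The labelled cell type and the genotype effect were checked with marker lists. The 10 dental papilla mesenchyme markers were present, with 1 lower in cKO, and summed to 5257 to 6272 CPM in control and 5131 to 5792 CPM in cKO. The 11 odontoblast markers summed to 71895 to 81782 CPM in control and to 5982, 4068 and 36816 CPM in cKO replicates 1, 2 and 3, 8 of them being lower in cKO at the study's thresholds by edgeR, or 3 in a fit blocked on the replicate number, and cKO replicate 3 stood apart from the other cKO libraries. Both replicate 3 libraries also stood apart in the 9 dental epithelium markers, which summed to 30557 CPM in control and 50425 CPM in cKO, against 2325 to 7385 CPM in the other 4 libraries. The 8 neutrophil markers summed to 4.59 to 21.1 CPM in control and to 68.5, 137 and 5.65 CPM in cKO replicates 1, 2 and 3 (2 of 5 tested higher), and the 7 macrophage markers to 694 to 1154 CPM and to 1458, 1816 and 535 CPM. The 6 endothelial markers summed to 237 to 387 CPM in control and 244 to 612 CPM in cKO, and the 6 erythroid markers to 208 to 430.4 CPM and 152 to 391 CPM. The 13 mitochondrially encoded genes summed to 14827 to 21126 CPM in control and 23062 to 43329 CPM in cKO (7 of 10 tested higher). No gene of these lists but *mt-Atp8* was below 0.1 CPM in every library, and the part of these cells and transcripts in the results below was not tested.

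The summed level of the ER translocation and vesicle coat genes was only slightly lower in cKO, while the main secreted cargo of odontoblasts was far lower. *Col1a1*, the gene of a type I collagen chain, stood at 54159, 56369.8 and 64929 CPM in control and at 4855, 3267 and 29999 CPM in cKO. *Dspp*, which encodes the dentin sialophosphoprotein precursor, was at 14165, 14372 and 13900.4 CPM in control and at 436, 215 and 5299 CPM in cKO. Both cargo genes had every cKO library below every control library, and the log2 fold change of cKO over control (log2FC, with its SE, SE) was -2.20 (SE 0.84) for *Col1a1* and -2.83 (SE 1.17) for *Dspp* by edgeR, with unadjusted p = 0.0355 and 0.0475. In the blocked fit the log2FC was -2.95 for *Col1a1* and -4.33 for *Dspp*, and *Dspp* no longer passed the study's thresholds (adjusted p = 0.342 by edgeR). The 79 genes of the set, folding genes and stress factors included, summed to 10447, 10506 and 11235 CPM in control and to 9259, 10395 and 10339 CPM in cKO, which is 93.2% of the control mean. Every cKO sum was below every control sum, the nearest being 10395 and 10447 CPM. In these bulk samples, fewer cells of a type and less RNA per cell cannot be told apart.

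**Figure D1:**
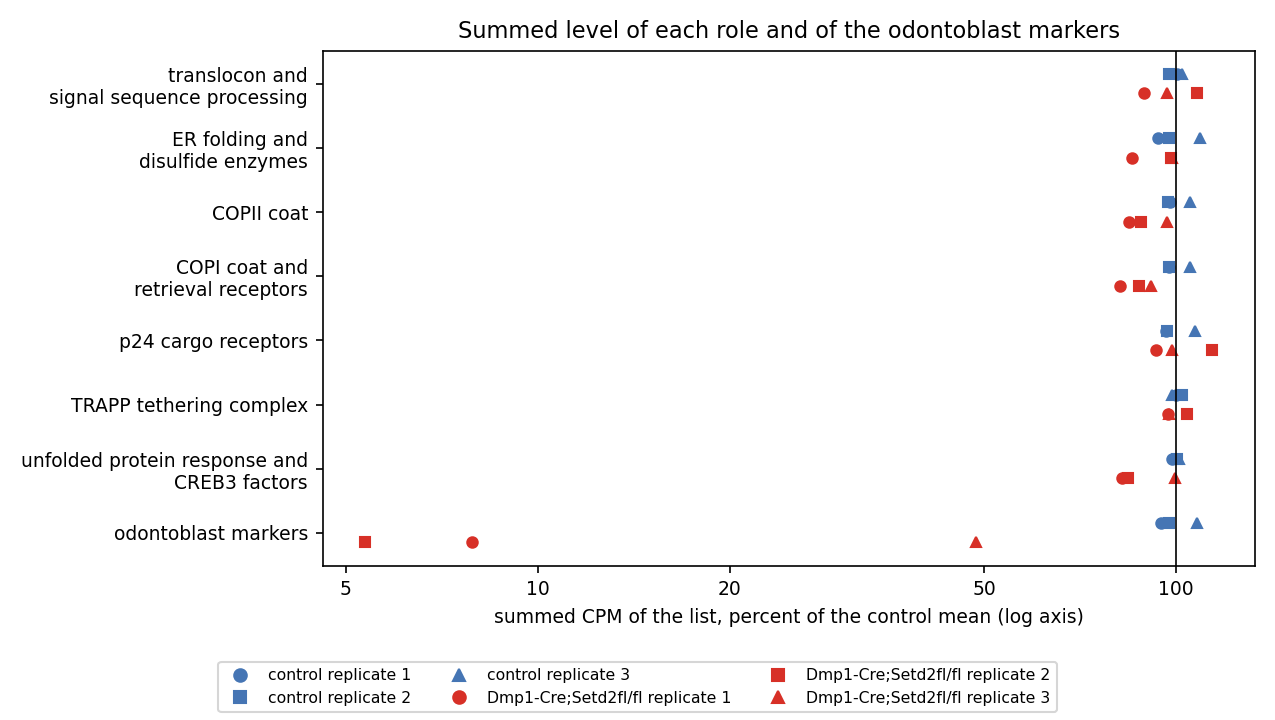
Summed CPM of each role and of the odontoblast markers in each library (points; blue, control; red, cKO; the symbol gives the replicate number), as a percent of the mean of the 3 control libraries, on a log axis. The roles lie between 81.8% and 114% of the control mean, and the odontoblast markers at 7.88%, 5.36% and 48.5% in cKO replicates 1, 2 and 3.

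At the study's thresholds, an unadjusted p under 0.05 by edgeR's quasi-likelihood test with a log2FC beyond 0.58 either way, 1 of the 78 genes was lower in cKO. That gene was *Copz2*, and its share of 1.28% lies under the 2.71% of all 16519 genes tested that were lower. No gene of the set was higher, where 1.10% of all genes were. None of the 78 genes had an adjusted p under 0.05 by edgeR, nor had any other gene (0.00%). Without the fold threshold, 4 genes had an unadjusted p under 0.05, all of them lower (5.13%, against 4.41% of all genes), and none was higher (3.17% of all genes). That count depended on the fit, and fell to between 1 and 3 when 1 library other than cKO replicate 3 was left out. Blocked on the replicate number, edgeR gave 10 genes lower at an unadjusted p under 0.05 (12.8%, against 8.96% of all genes) and *Spcs3* higher (8.32% of all genes). *Copg1*, *Kdelr2*, *Sec16a*, *Sec16b*, *Sec22b*, *Sec61a2* and *Trappc9* joined the lower genes there, and *Creb3l2* left them. Without cKO replicate 3 there were 12 lower (15.4%, against 11.1%) and 2 higher (2.56%, against 9.88%). By limma voom with quality weights there were 32 lower (41.0%, against 15.0%) and 1 higher (1.28%, against 11.9%). DESeq2 called 1 gene lower at an adjusted p under 0.05, *Kdelr3* (0.696% of all genes), and voom called 8 (10.3%, against 5.98% of all genes).

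The median log2FC was -0.08 over the 78 genes and 0.02 over all genes tested. It was below 0 for 48 of the 78 (61.5%, against 47.4% of all genes). Changes under 0.25 in size made up 84.6% of the set and 63.8% of all genes, which were not matched to the set for expression level. For 11 genes every cKO library was below every control library (14.1%, against 7.98% of all genes), and for 3 every cKO library was above (3.85%, against 7.26%). The 11 are *Copa*, *Copz2*, *Kdelr3*, *Sec22b*, *Sec23b*, *Sec24a*, *Sec24d*, *Spcs2*, *Tmed3*, *Trappc11* and *Creb3l2*. Of these, 7 are genes of the COPI or COPII system with its receptors and SNAREs, roles that hold 11 and 17 of the 78 genes tested. The 3 are *Sec22c*, *Spcs3* and *Trappc5*.

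**Figure D2:**
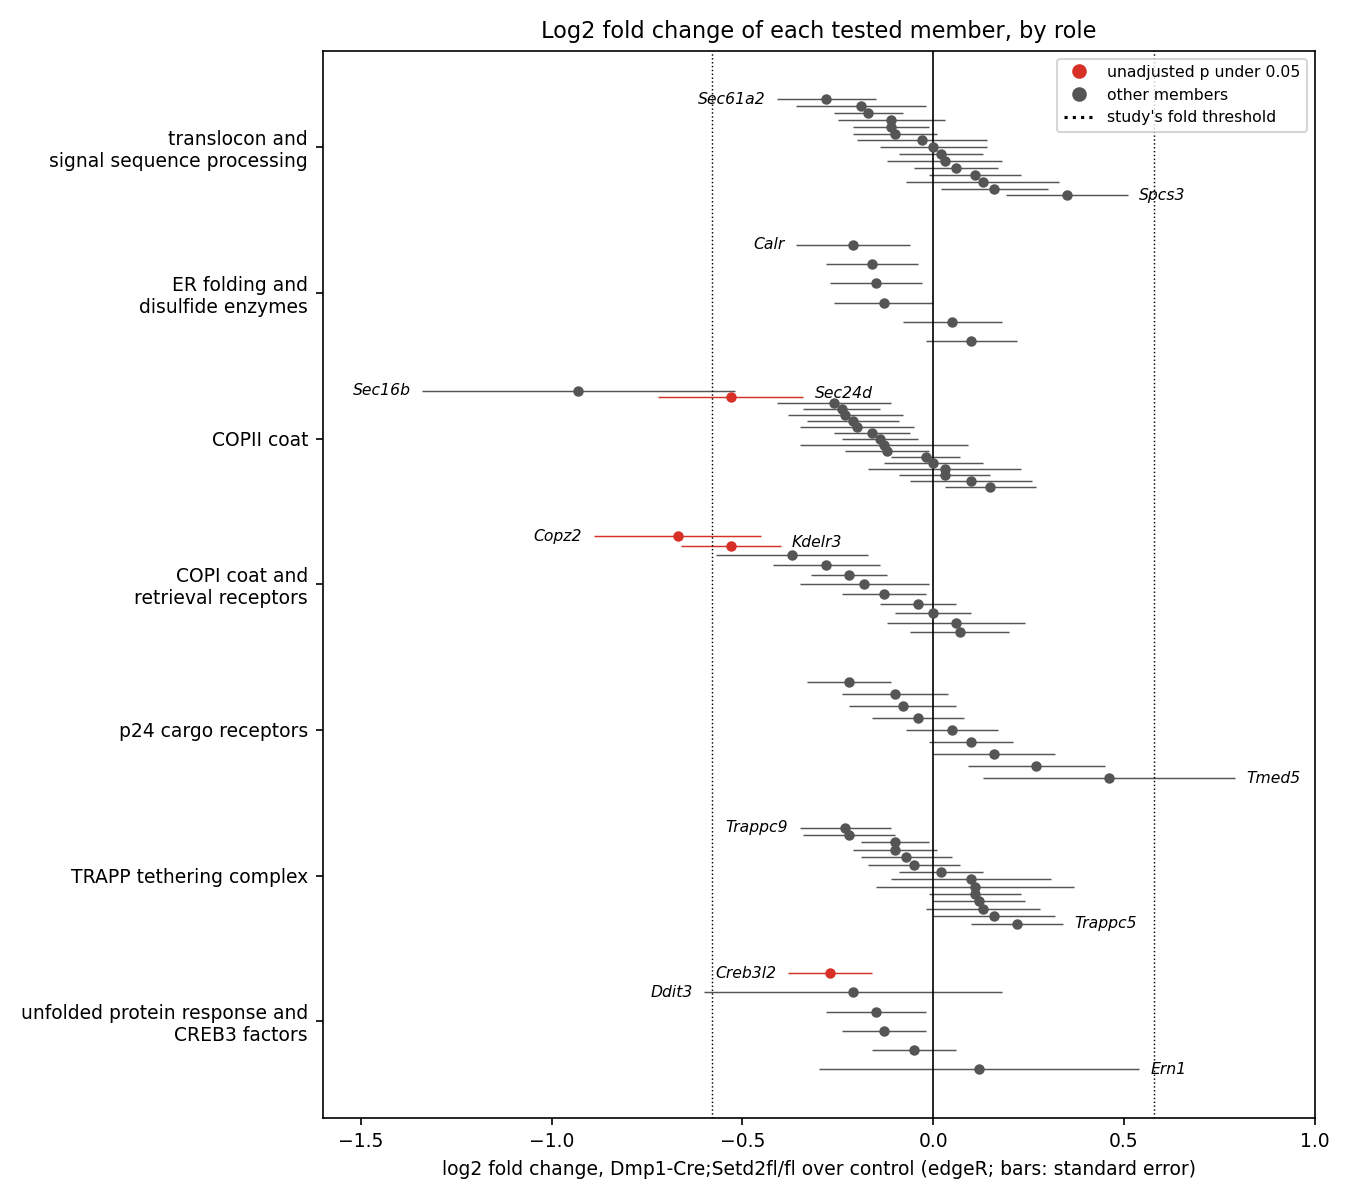
Log2FC (horizontal axis; bars, SE by edgeR) for the 78 tested genes, in rows by role, with the study's fold threshold of 0.58 dotted. Red points have an unadjusted p under 0.05. The lowest values are those of *Sec16b* (-0.93), *Copz2* (-0.67), *Kdelr3* and *Sec24d* (both -0.53), and the highest is that of *Tmed5* (0.46).

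Among the 15 genes of the translocon and of signal sequence processing, none passed the study's thresholds and the median log2FC rounded to 0. *Ssr3*, a subunit of the translocon-associated protein complex, had the highest level of this role per length (101 CPM per kb). It was at 309, 280.2 and 307 CPM in control and 255, 352 and 289 CPM in cKO, and the cKO libraries lay on both sides of the controls. *Sec61a2*, the gene of a second isoform of the translocon pore, had the smallest p of the role. It was at 45.5, 43.8 and 36.4 CPM in control and 37.9, 32.8 and 32.6 CPM in cKO, and the groups overlapped (log2FC -0.28, SE 0.13, adjusted p = 0.667 by edgeR). The more abundant *Sec61a1* was at 219.5, 229 and 300.2 CPM in control and 198, 203 and 256 CPM in cKO, with replicate 3 the highest of each group (log2FC -0.19, SE 0.17). *Spcs3*, a subunit of the signal peptidase complex named here after its values were seen, went the other way. It was at 44.1, 42.9 and 45.9 CPM in control and 46.3, 70.0 and 52.8 CPM in cKO, where replicate 1 was only just above the controls (log2FC 0.35, SE 0.16, adjusted p = 0.667 by edgeR). *Sec11a* and *Sec11c*, alternative catalytic subunits of that complex, had log2FCs of 0.16 and -0.11 (SE 0.14 each).

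The 6 ER folding and disulfide enzymes held the highest level of the set and no call. *Calr* was at 828, 874 and 981 CPM in control and 679, 741 and 894 CPM in cKO, with cKO replicate 3 inside the control range. Its log2FC was -0.21 (SE 0.15, adjusted p = 0.726 by edgeR), the smallest p of the role. The log2FCs of the other folding genes, *Canx*, *Pdia3*, *Pdia4*, *Pdia5* and *Pdia6*, ran from -0.16 to 0.10.

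The COPI coat with its retrieval receptors held the *Copz2* call, and the 11 genes of this role had the lowest median of any role, -0.18. Of the 11, 8 had a log2FC below 0 and 3 above 0. *Arcn1*, a COPI coat gene that the rule's names do not cover, had a log2FC of -0.02 (SE 0.12). The sum of the 11 was 2283, 2283 and 2451 CPM in control and 1913, 2046 and 2135 CPM in cKO, and the groups did not overlap. *Copz2* (ENSMUSG00000018672, GRCm38 chromosome 11 from 96849870 to 96861203) encodes the second zeta subunit of the coat and had the highest level of the role per length, 120.4 CPM per kb. It was at 135, 127 and 155 CPM in control and 76.3, 66.8 and 119.6 CPM in cKO, and cKO replicate 3 came closest to the controls without reaching them. The mean was 139 ± 14.2 CPM in control and 87.6 ± 28.2 CPM in cKO (SD, n = 3 libraries each). Its log2FC was -0.67 (SE 0.22, unadjusted p = 0.0204 and adjusted p = 0.626 by edgeR). The fit blocked on the replicate number gave -0.71 (adjusted p = 0.0414 by edgeR). The study's methods name no such pairing, and that of replicates 1 and 2 by number was not clearly told from the reverse. The call at the study's thresholds was lost without control replicate 3 (log2FC -0.59, unadjusted p = 0.0547 by edgeR), without cKO replicate 1 (-0.58, unadjusted p = 0.0729) and without cKO replicate 2 (-0.51, unadjusted p = 0.0575).

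*Kdelr3* (ENSMUSG00000010830, chromosome 15 from 79516411 to 79527739) encodes a receptor that retrieves ER residents bearing a KDEL signal, and had the smallest p of the whole set. It was at 151, 146 and 149 CPM in control and 86.5, 110.0 and 112 CPM in cKO. The controls differed by far less than the gap to the cKO libraries, and cKO replicate 3 stood with the other cKO libraries here. The mean was 149 ± 2.23 CPM in control and 103 ± 14.0 CPM in cKO (SD, n = 3 each), a log2FC of -0.53 (SE 0.13, unadjusted p = 0.00375 and adjusted p = 0.558 by edgeR). DESeq2 gave it an adjusted p of 0.047. By edgeR with all libraries the fold lay under the study's threshold. It passed without cKO replicate 2 (-0.59), without cKO replicate 3 (-0.60), without replicate 3 of both groups (-0.59) and by voom (-0.71, adjusted p = 0.00163). *Kdelr3* overlaps *Ddx17* in the table, and reads were counted without regard to strand. *Ddx17* was at 1145 to 1471 CPM in control and 934 to 1231 CPM in cKO.

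The other KDEL receptors differed in their values. *Kdelr2* was at 164, 162 and 209.5 CPM in control and 110.0, 129 and 177 CPM in cKO, and its groups overlapped through cKO replicate 3 (log2FC -0.37, SE 0.20, adjusted p = 0.696 by edgeR). *Kdelr1* was at 176, 178 and 187 CPM in control and 165, 185 and 176 CPM in cKO, a log2FC of -0.04 (SE 0.10). Of the coat subunits, *Copa*, the alpha subunit, named after its values were seen, lay between 584 and 590.1 CPM in control and between 498 and 514 CPM in cKO (log2FC -0.22, SE 0.10, adjusted p = 0.667 by edgeR). *Copz1*, the ubiquitous zeta subunit, did not separate the genotypes at all, with 141, 138 and 152 CPM in control and 134, 146 and 152 CPM in cKO (SE of its log2FC 0.10). *Copg1* and *Copg2*, the gamma subunits, had log2FCs of -0.28 (SE 0.14) and 0.07 (SE 0.13), and *Copg2* overlaps *Mest*.

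Of the 17 COPII genes, none passed the study's thresholds, with a median log2FC of -0.14 and 13 values below 0. Their sums also did not overlap, at 1753, 1740.2 and 1876 CPM in control and 1511, 1575 and 1732 CPM in cKO. *Sar1a*, the small GTPase that starts coat assembly, had the highest level of the role per length (113 CPM per kb) and a log2FC of 0.03 (SE 0.12). *Sec24d* (ENSMUSG00000039234, chromosome 3 from 123267455 to 123365641) encodes a cargo-binding coat subunit that is known for a role in the export of collagen. It was at 102, 99.7 and 123 CPM in control and 66.3, 62.3 and 96.0 CPM in cKO, so that every cKO library was below every control, with cKO replicate 3 just below. The mean was 108 ± 12.9 CPM in control and 74.9 ± 18.4 CPM in cKO (SD, n = 3 each), a log2FC of -0.53 (SE 0.19, unadjusted p = 0.0252 and adjusted p = 0.626 by edgeR). Without control replicate 2 the log2FC was -0.59 and passed the study's thresholds, and without control replicate 3, cKO replicate 1 or cKO replicate 2 the unadjusted p was 0.0705 to 0.0874 by edgeR.

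*Sec16b* (ENSMUSG00000026589, chromosome 1 from 157506728 to 157568425), a paralog of the scaffold that organises ER exit sites, had the lowest log2FC of the set. It was at 35.1, 32.5 and 46.1 CPM in control and 14.4, 11.3 and 33.7 CPM in cKO. Replicates 1 and 2 of cKO were far below the controls, and replicate 3 lay within their range. The mean was 37.9 ± 7.21 CPM in control and 19.8 ± 12.1 CPM in cKO (SD, n = 3 each), a log2FC of -0.93 (SE 0.41, unadjusted p = 0.0578 and adjusted p = 0.665 by edgeR). By DESeq2, named in the study's methods, *Sec16b* passed the study's thresholds with all libraries, beside *Copz2*. Its DESeq2 log2FC was -0.93 (unadjusted p = 0.0184 and adjusted p = 0.425 by DESeq2), and the share of all genes passing by DESeq2 was not counted. Voom gave *Sec16b* a log2FC of -1.19 (adjusted p = 0.00464 by voom). In the blocked fit *Sec16b* also passed the study's thresholds beside *Copz2* (log2FC -1.07, adjusted p = 0.0805 by edgeR), which makes 2 of 78 genes against 4.37% of all genes. The block at an adjusted p under 0.05 called *Copz2* alone, against 0.799% of all genes lower. The partner *Sec16a* was at 144, 149 and 155 CPM in control and 124, 102 and 149.6 CPM in cKO, with the same place for replicate 3 (log2FC -0.26, SE 0.15). *Sec22b*, a SNARE of ER-to-Golgi vesicles, was at 111 to 122 CPM in control and 90.6 to 105 CPM in cKO (log2FC -0.24, SE 0.10, adjusted p = 0.665 by edgeR). The remaining COPII genes ran from -0.23 (*Sec31a*) to 0.15 (*Sec22c*), and *Sec31b* was at only 2.86 to 3.84 CPM.

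Leaving out cKO replicate 3 moved these counts more than leaving out any other library. Without it, edgeR called 5 genes lower at the study's thresholds, *Copz2*, *Ddit3*, *Kdelr3*, *Sec16b* and *Sec24d* (6.41%, against 6.88% of all genes), and *Tmed5* higher (1.28%, against 4.01%). At an adjusted p under 0.05 it called *Sec16b* (log2FC -1.55), *Copz2* (-0.96) and *Sec24d* (-0.75), which is 3.85% against 2.65% of all genes lower. Over the 48 genes with a log2FC below 0, replicate 3 lay closer to the control mean than the mean of the other cKO libraries did for 33 (68.8%), as it did for 57.5% of all tested genes with a log2FC below 0.

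**Figure D3:**
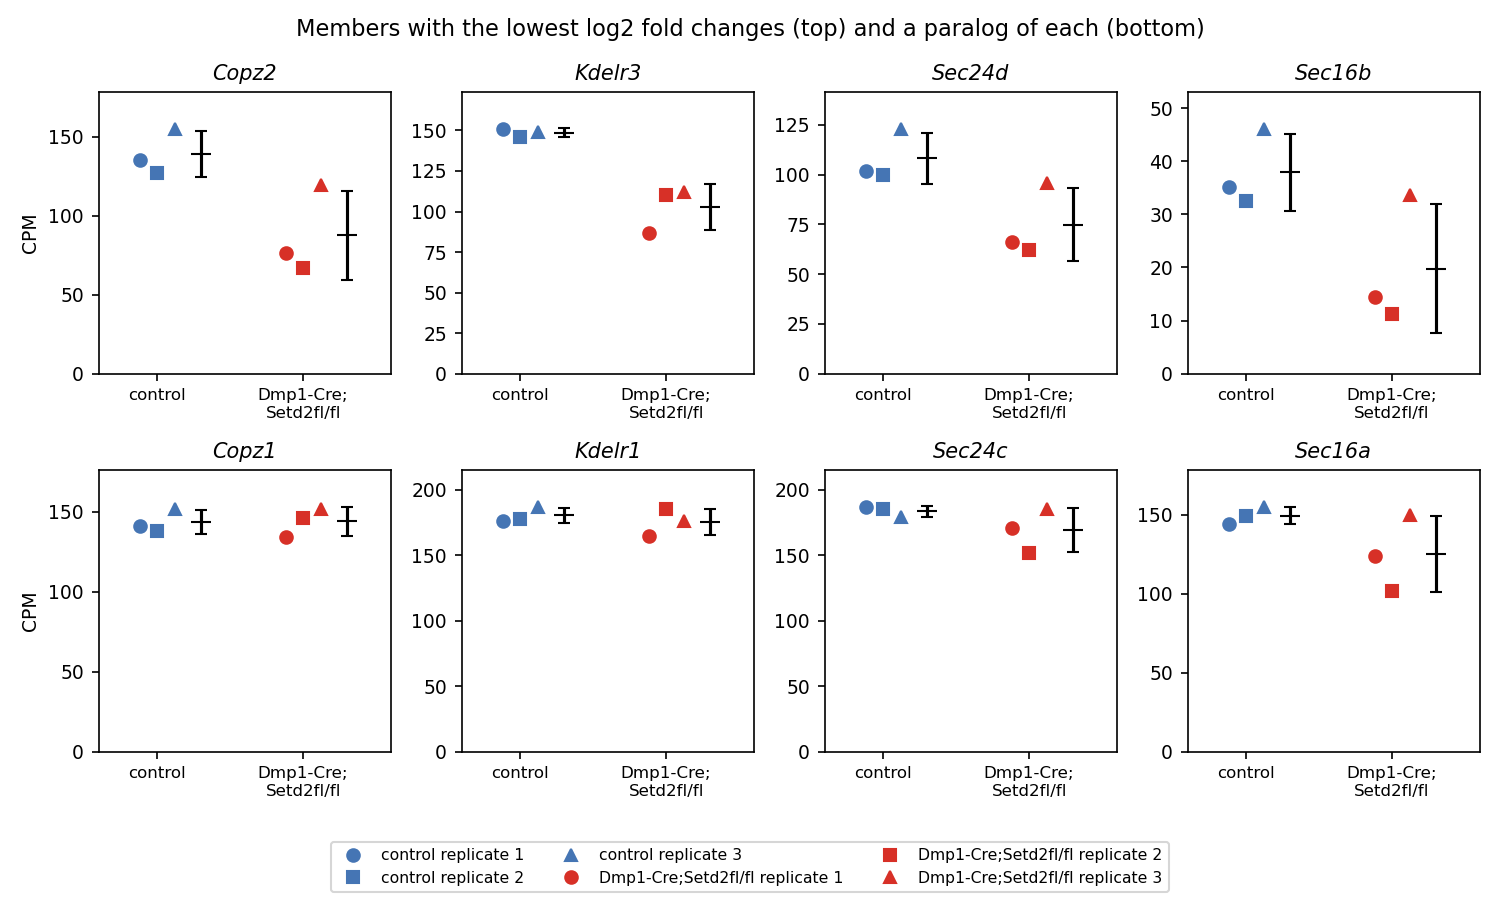
CPM in each library (symbols by replicate number) with the mean and SD of each group (black) for the 4 genes with the lowest log2FCs and a paralog of each beneath. *Copz2*, *Kdelr3* and *Sec24d* have every cKO library below every control, while *Copz1* and *Kdelr1* overlap between 134 and 187 CPM.

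Ratios of paralogs within a library do not depend on how libraries are scaled, and 13 pairs were compared by the exact two-sided permutation test over the 6 libraries, which cannot go below p = 0.1. The pairs without overlap were *Copz2*/*Copz1*, *Sec24d*/*Sec24c* and *Sec22b*/*Sec22a*, each with p = 0.1 by the exact permutation test and an adjusted p of 0.433 over the 13. The log2 ratio of *Copz2* to *Copz1* was -0.06, -0.11 and 0.03 in control and -0.81, -1.13 and -0.34 in cKO, a difference of -0.71 between the means. Per length, *Copz2* made up 63.0% of the zeta pair in control and 51.7% in cKO. *Sec24d* to *Sec24c* stood at -0.87, -0.89 and -0.54 in control and at -1.36, -1.29 and -0.95 in cKO (difference -0.43), and *Sec24d* went from 40.6% to 33.8% of the pair per length. *Sec22b* to *Sec22a* stood at 1.46, 1.53 and 1.69 in control and 1.22, 0.99 and 1.45 in cKO, where the nearest libraries of the groups were 1.45 and 1.46 (difference -0.34). No pair reached the threshold of 0.05, which the design does not allow.

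*Sec16b* to *Sec16a* had the lowest difference of the 13, -0.81, but overlapped, at -2.03, -2.19 and -1.75 in control and -3.09, -3.16 and -2.15 in cKO (p = 0.2 by the exact permutation test). Among the KDEL receptors the difference was -0.34 for *Kdelr2*/*Kdelr1* and -0.16 for *Kdelr3*/*Kdelr2*. For *Copg2*/*Copg1* it was 0.35, the highest of the 13, and for *Sec11c*/*Sec11a* it was -0.26. The remaining pairs, *Sec23a*/*Sec23b*, *Sec24a*/*Sec24b*, *Sec31b*/*Sec31a*, *Sec61a2*/*Sec61a1* and *Sar1b*/*Sar1a*, differed by -0.21 to 0.09. With the pairs of replicate numbers as a block, the exact sign-flip test cannot go below p = 0.25, which 7 of the pairs reached.

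**Figure D4:**
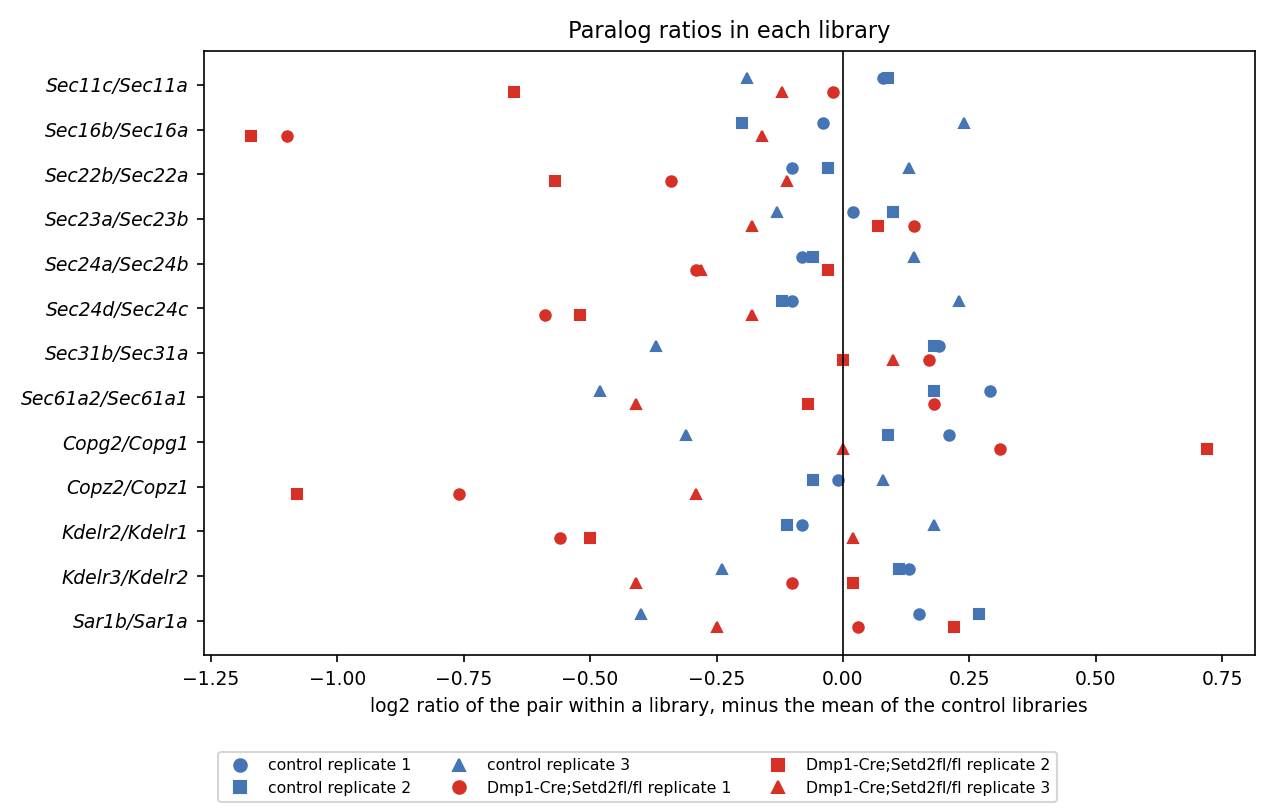
Log2 ratio of each of the 13 paralog pairs in each library (symbols by replicate number; blue, control; red, cKO), with the mean of the control libraries set to 0. cKO replicates 1 and 2 lie lowest for *Sec16b*/*Sec16a* and *Copz2*/*Copz1*, and the groups do not overlap for *Copz2*/*Copz1*, *Sec24d*/*Sec24c* and *Sec22b*/*Sec22a*.

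The promoters of these genes were read from RefSeq (GRCm38.p6), from 250 bases before to 50 bases after each annotated start, for the 67 genes that matched by symbol. Factors of the unfolded protein response and the CREB3 family bind elements built on ACGTG, and both strands were searched. ACGTG was present in 38 of the 67 genes (56.7%), or 39 of their 71 promoters, and in 19.6% of the 32851 promoters of the table. Those promoters were not matched for base composition or expression. Here and below, a gene counts if any of its promoters holds the motif, while the background is counted per promoter. CCACG, whose reverse complement CGTGG can overlap ACGTG, was present in 42 genes (62.7%, against 32.8% of promoters), and CCAAT in 28 (41.8%, against 37.4%). TGACGT was present in 15 genes (22.4%, against 7.51%). The ER stress element, CCAAT and CCACG with 9 bases between them, was found in *Calr*, *Canx* and *Pdia6*, against 0.119% of promoters. These 3 sites are shown because the genes that carry the classical element are folding genes, whose log2FCs were -0.21, 0.10 and -0.13. Capitals mark CCAAT and CCACG, and all sites are written on the strand on which the motif reads. The strand in brackets is that of the gene, here and below, and in *Calr* the motif reads on the opposite strand.
Calr (chr8:84847069-84847098, gene on the minus strand): tatgggCCAATgagggtcgaCCACGcgttg
Canx (chr11:50325795-50325824, minus): tattgaCCAATcaccacgctCCACGaagaa
Pdia6 (chr12:17266485-17266514, plus): cagagaCCAATgaaaggcggCCACGgcgtg

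A longer form, TGACGTGG, holds TGACGT and ACGTG together, and was searched after the values and promoters had been seen. It was in 6 of the 67 genes (8.96%) and in 0.676% of promoters. All 6 belong to the COPII or COPI systems, roles that hold 17 and 11 of the 79 genes. The 6 include *Sec16b*, *Kdelr3* and *Sec24d*, which had 3 of the 4 lowest log2FCs of the set. They also include *Sec23a* (-0.14), *Copb2* (-0.13) and *Copb1* (0.06), whose log2FC were under 0.25 in size. The 6 sites are shown for this contrast, with TGACGTGG in capitals. In *Kdelr3*, *Copb2* and *Copb1* the motif reads on the strand opposite to the gene.
Sec16b (chr1:157506741-157506770, plus): ttctgtgtggcTGACGTGGcacggcagttt
Kdelr3 (chr15:79516367-79516396, plus): tggccgcgcggTGACGTGGcggggcggcca
Sec24d (chr3:123267459-123267488, plus): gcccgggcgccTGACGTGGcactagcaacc
Sec23a (chr12:59011993-59012022, minus): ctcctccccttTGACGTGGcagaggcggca
Copb2 (chr9:98563713-98563742, plus): ggccaacccacTGACGTGGaacttccggga
Copb1 (chr7:114254690-114254719, minus): aagtccttggcTGACGTGGaagggggcggg
*Copz2*, the called gene, holds ACGTG at 2 places but not TGACGTGG, and its site before the start is shown with ACGTG in capitals.
Copz2 (chr11:96849743-96849772, plus): aggttctgcaacgACGTGggggtcgggcag
These are matches of letters in 1 window per annotated start. Binding was not measured here.

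Of the 10 p24 cargo receptor genes, 9 were tested, none passed, and the median log2FC was 0.05. *Tmed9* had the highest level of the role per length (165 CPM per kb) and was at 216, 228 and 283 CPM in control and 202, 233 and 244 CPM in cKO (log2FC -0.10, SE 0.14). *Tmed3* had the smallest p and was at 129, 129 and 139 CPM in control and 101, 118 and 123 CPM in cKO, without overlap (log2FC -0.22, SE 0.11, adjusted p = 0.686 by edgeR). *Tmed5*, named after its values were seen, had the highest log2FC of the set, 0.46 (SE 0.33). It was at 13.8, 14.8 and 11.1 CPM in control and 17.6, 26.7 and 10.5 CPM in cKO, so that cKO replicate 3 was below all controls while replicates 1 and 2 were above them. *Tmed5* overlaps *Mtf2* in the table.

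The 14 genes of the TRAPP complexes, which tether vesicles at the Golgi, had summed levels of 614 to 633 CPM in control and 605 to 651 CPM in cKO. Their log2FCs ran from -0.23 to 0.22 with a median of 0.06, and none passed. *Trappc3*, a core subunit with the highest level per length (63.8 CPM per kb), was at 75.8 to 84.6 CPM in control and 71.2 to 103 CPM in cKO. *Trappc9*, a subunit of the TRAPPII form, had the smallest p of the role, with 51.5, 56.0 and 60.7 CPM in control and 45.2, 45.0 and 52.8 CPM in cKO (log2FC -0.23, SE 0.12, adjusted p = 0.683 by edgeR).

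Among the 6 factors of the unfolded protein response and the CREB3 family, none passed the study's thresholds. *Creb3l2* (ENSMUSG00000038648, chromosome 6 from 37327255 to 37442146) encodes an ER-bound factor known to drive *Sec23a* in cartilage. It was at 343, 365 and 304 CPM in control and 283, 268 and 288 CPM in cKO, so that every cKO library was below every control. The log2FC was -0.27 (SE 0.11, unadjusted p = 0.0457 and adjusted p = 0.655 by edgeR), under the study's fold threshold, and the unadjusted p in the blocked fit was 0.0503. *Sec23a* itself was at 78.9, 78.6 and 73.0 CPM in control and 69.3, 75.5 and 63.7 CPM in cKO (log2FC -0.14, SE 0.10). *Creb3*, the founding gene of that family, had a log2FC of -0.13 (SE 0.11).

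*Xbp1*, whose transcript is spliced by IRE1 during ER stress, was at 195, 186 and 219 CPM in control and 159, 180.1 and 202 CPM in cKO (log2FC -0.15, SE 0.13). A count per gene does not separate its spliced form. *Atf6*, a sensor that is cleaved in the Golgi, was level (log2FC -0.05, SE 0.11). *Ern1*, the gene of IRE1, was at 44.8, 40.6 and 73.5 CPM in control and 43.6, 35.1 and 94.7 CPM in cKO. Here the replicate number set the libraries apart more than the genotype did (log2FC 0.12, SE 0.42). *Ddit3*, which encodes the stress-induced factor CHOP and overlaps *Mars*, was at 12.9, 14.5 and 14.7 CPM in control and 8.85, 7.16 and 20.5 CPM in cKO, with cKO replicates 1 and 2 below and replicate 3 above all controls. Its log2FC was -0.21 (SE 0.39) with all libraries and -0.81 without cKO replicate 3 (unadjusted p = 0.00225 and adjusted p = 0.0581 by edgeR).

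**Figure D5:**
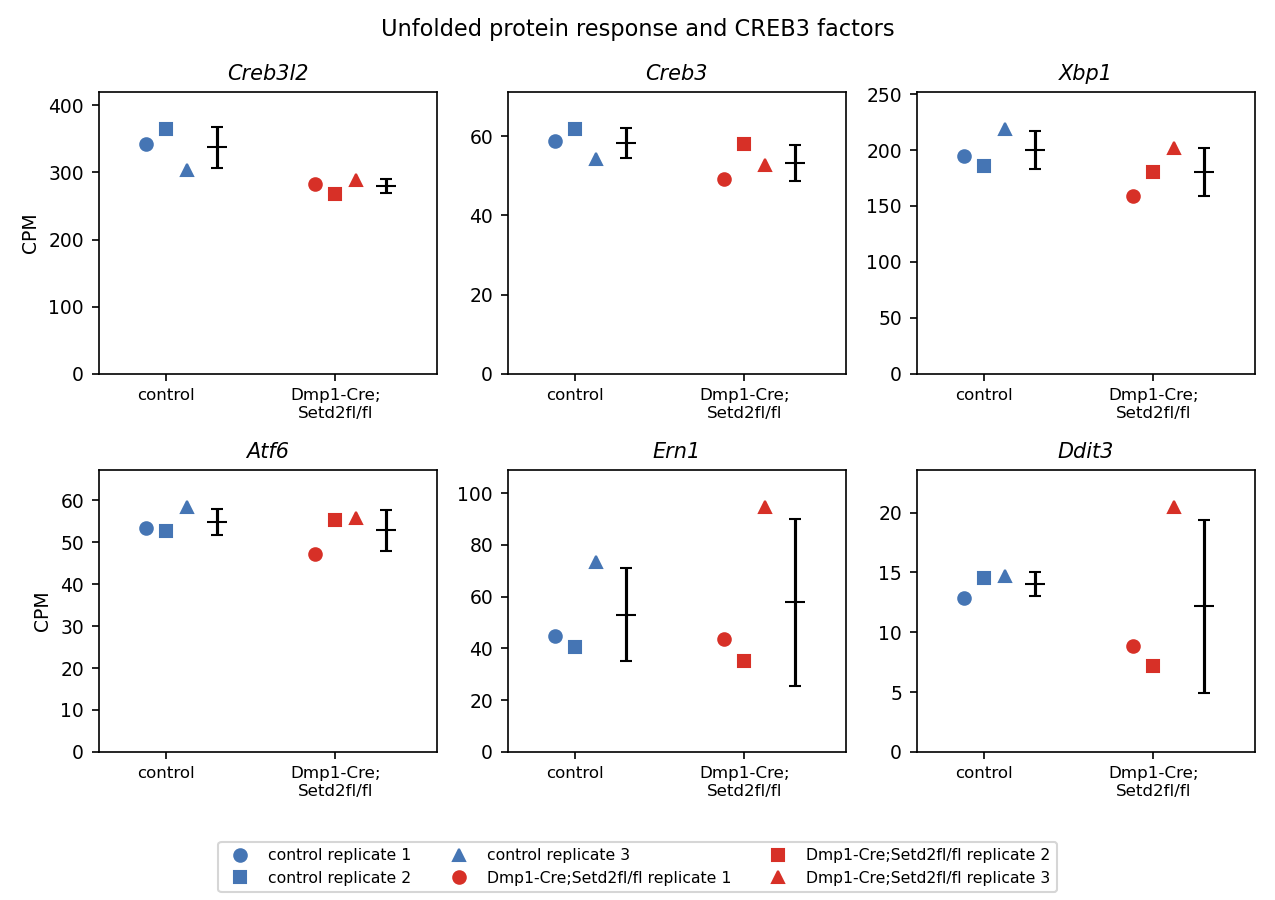
CPM in each library (symbols by replicate number) with the mean and SD of each group (black) for the 6 factors. *Creb3l2* has no overlap between control (304 to 365 CPM) and cKO (268 to 288 CPM), while in *Ern1* the replicate 3 libraries of both groups, at 73.5 and 94.7 CPM, lie above all others.

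Replicate 3 was the highest library of its group in both genotypes for 28 of the 78 genes (35.9%, against 29.7% of all genes) and the lowest in both for 18 (23.1%, against 27.7%). The 28 include *Ern1*, *Ddit3*, *Xbp1*, *Atf6*, *Calr*, *Sec16b*, *Sec24d* and *Copz2*, and the 18 include *Sec24a*, *Sec61a2* and *Tmed5*. The replicate 3 libraries are also those with the high sums of dental epithelium markers given above, and the part of those cells in these levels was not tested.

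The rest of the secretory pathway was given by 7 lists of other genes, with 103 genes tested, of which 4 passed the study's thresholds, all of them lower (3.88%, against 2.71% of all genes), and none had an adjusted p under 0.05 by edgeR. The calls fell in 2 lists. Of 23 ER lumenal chaperones and oxidases, *Fkbp7* and *Hyou1* were lower. *Fkbp7*, an ER prolyl isomerase, was at 85.2, 84.2 and 59.2 CPM in control and 44.4, 60.2 and 41.0 CPM in cKO, with overlap between cKO replicate 2 and control replicate 3 (log2FC -0.65, SE 0.20). *Fkbp14*, a related isomerase with the smallest p of that list, was at 131, 127 and 117 CPM in control and 88.4, 103 and 92.3 CPM in cKO (log2FC -0.41, SE 0.11, adjusted p = 0.625 by edgeR), under the fold threshold. *Hyou1*, an ER chaperone of the heat shock family, had a log2FC of -0.76 (SE 0.25). Blocked on the replicate number, *Fkbp7* had an adjusted p of 0.0414 and *Hyou1* of 0.0298 by edgeR.

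Of the other 12 unfolded protein response genes, *Creb3l3* and *Creb3l1* were lower. *Creb3l3*, a factor best known from liver, was low throughout, at 5.20, 4.84 and 6.46 CPM in control and 0.813, 0.583 and 3.26 CPM in cKO (log2FC -1.83, SE 0.61). *Creb3l1*, an ER-bound factor of bone collagen synthesis, was at 159.6, 169.8 and 233 CPM in control and 51.2, 40.6 and 144 CPM in cKO, without overlap (log2FC -1.26, SE 0.48). *Eif2ak3*, the gene of the sensor PERK, was at 37.8 to 45.0 CPM in control and 22.4 to 35.7 CPM in cKO (log2FC -0.50, SE 0.18, unadjusted p = 0.0301 by edgeR). No call fell among the 9 tested genes of the signal recognition particle and its receptor (median log2FC 0.03), 11 of the oligosaccharyltransferase (-0.14), 12 of ER-associated degradation (-0.06), 12 of ER exit sites and large cargo export (-0.07) or 24 of Golgi tethers, SNAREs and the ARF cycle (-0.02). In the last of these, *Arfgap1*, a GTPase activator of the COPI cycle, passed the study's thresholds in the blocked fit (log2FC -0.61, adjusted p = 0.0833 by edgeR).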

How the data were processed

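Bulk RNA-seq of 3 control and 3 cKO libraries was analysed. The authors aligned reads with HISAT2, and used HTSeq, ignoring strand, to count them by gene, and they deposited 1 table of raw counts, whose own DESeq2 comparison columns (fold changes and p-values) were not used. The submitters' notes also name Bowtie2 and GRCm39. Gene positions in the table share a start or end with RefSeq GRCm38.p6 for 47.4% of shared genes and with a GRCm39 annotation for 1.3%, and were taken as GRCm38. Of the 79 genes, 34 overlap another gene of the table, so their reads cannot be told apart there by strand.

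The 2 genotypes were compared by edgeR 4.0.16 under R 4.3.3 (filterByExpr, minimum count 10, TMM, robust quasi-likelihood F test), with Benjamini-Hochberg adjustment over the 16519 genes tested. CPM use TMM-scaled library sizes, log2 ratios of paralogs a prior count of 2, and levels per length the canonical GENCODE transcript. Libraries held 18557647 to 19210750 counts, and the common biological coefficient of variation was 25.3%. Neither separate litters nor separate animals are stated for the pools, so p-values rest only on how these libraries vary. Fits were tested on simulated data. The replicate numbers stand in the sample descriptions. After the group mean was taken from each gene, same-numbered libraries correlated at 0.453, 0.465 and 0.663, which meets the rule set for pairing by number. However, control replicate 2 and cKO replicate 1 correlated at 0.455, and control replicate 1 and cKO replicate 2 at 0.380. Deviations cancel out within each group, so a shared departure of replicate 3 also raises the correlations among replicates 1 and 2. Their pairing by number is therefore not clearly told from the reverse. The reported values come from the fit without the block, since the study's methods name no pairing, and blocked values are given where they change a call.

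The genes, lists and tests were chosen with earlier results of these data known. Named genes were those passing the study's thresholds, in each role the one with the highest level per length and the one with the smallest p, the 6 stress factors and both genes of each paralog pair. Others are marked as chosen after their values were seen, or are given as ends of a range or as having no overlap. Alternatives were scaling by RLE or by totals that leave out the 100 highest genes, no filter or 10 counts in every library as the filter, DESeq2 1.42.0, voom with quality weights in limma 3.58.1, the replicate block, each library left out, replicate 3 left out of both groups, an adjusted p under 0.1 and, for the paralog ratios, a prior count of 0.5.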

Additional observations from a re-analysis of the deposited data

How the results depend on the processing

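The number of genes lower at the study's thresholds, 1 with all libraries, was 2 (*Copz2* and *Sec16b*) by DESeq2 and with the replicate block. It was 5 by voom and 5 with replicate 3 left out of both groups. It ranged from 0 to 5 when 1 library was left out, with 0 without control replicate 3 or cKO replicate 1 and 5 without cKO replicate 3. The share of all genes lower also rose, from 2.71% with all libraries to 4.37% with the block and 6.88% without cKO replicate 3. For the other fits that share was not counted, so their counts are not a result about the set. The number higher, 0, was 1 with replicate 3 left out of both groups and 0 to 1 with 1 library left out. At an adjusted p under 0.05, DESeq2 and the replicate block each called 1, voom 8, and edgeR 5 with replicate 3 left out of both groups and 0 to 3 with 1 library left out. Of all genes, 0.696% by DESeq2, 0.799% with the block, 5.98% by voom and 2.65% without cKO replicate 3 were lower at that level. With replicate 3 left out of both groups that share was not counted. Scaling by RLE or by totals that leave out the 100 highest genes, and the filters on low counts, moved none of these counts, and an adjusted p under 0.1 added no call. The median log2 fold change of the set stayed below 0 throughout, from -0.12 to -0.03 with 1 library left out and at -0.14 by voom. At the study's thresholds and at an adjusted p under 0.05, the replicate block changed no call among the 78 genes other than those of *Copz2* and *Sec16b*. The number with an unadjusted p under 0.05, 4 with all libraries, was 11 with the replicate block, 33 by voom and 14 without cKO replicate 3. It fell to 3 without any 1 of the control libraries, to 2 without cKO replicate 1 and to 1 without cKO replicate 2.

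Of 518 fits of the 37 named genes under these alternatives, 482 kept their direction and side of the study's thresholds, 16 passed them, 3 no longer did and 17 changed sign, none of these from a called value. A value that rounds to 0 was given no sign. By voom, *Copg2* was at -0.02, *Sar1a* at -0.03, *Sar1b* at -0.20 and *Sec22a* at -0.05. With replicate 3 left out of both groups, *Ern1* was at -0.11. With 1 library left out, sign changes occurred within ranges of -0.08 to 0.01 for *Kdelr1*, -0.05 to 0.14 for *Copg2*, -0.17 to 0.14 for *Sar1b*, -0.05 to 0.19 for *Sec22a*, -0.18 to 0.03 for *Tmed9*, -0.10 to 0.02 for *Atf6*, -0.43 to 0.43 for *Ern1*, -0.81 to 0.06 for *Ddit3* and -0.04 to 0.10 for *Sar1a*. The paralog ratio differences that changed sign ranged from -0.05 to 0.11 for *Sec23a*/*Sec23b*, -0.09 to 0.19 for *Sec31b*/*Sec31a* and -0.33 to 0.06 for *Sec61a2*/*Sec61a1*. The cause was not tested. Where a library is left out, the remaining libraries set the spread. With 3 libraries a group, the paralog tests cannot reach 0.05.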
